A study of Mus musculus with 8 samples.

Results

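The constitutive androstane receptor CAR (gene Nr1i3) and the pregnane X receptor PXR (Nr1i2) were described here together with the Cyp2b and Cyp3a cytochrome P450 genes through which they are best known. Of 10 listed genes, 8 were represented on the array by a probe annotated to that gene alone, out of 19938 genes so represented. They were Nr1i3, Nr1i2, Cyp2b9, Cyp2b10, Cyp2b13, Cyp3a11, Cyp3a13 and Cyp3a25, each with 1 such probe. Cyp3a41a was listed only on probes that also name near-identical genes, and Por, which encodes the reductase that passes electrons to microsomal P450 enzymes, was not analysed here. The values are log2 expression values from 8 Affymetrix arrays of livers of male C57BL/6J mice (M24, M48, M50 and M60). An AAV vector had been injected when the animals were 2 to 3 months old, and they were then kept on a normal diet for 18 months. From each mouse, 1 piece labelled as hepatocellular carcinoma and 1 piece labelled as adjacent normal liver were taken, so that the 2 groups hold n = 4 samples each and are paired by mouse. Both tissues came from vector-treated animals, and the labels do not name the vector's promoter or transgene. Every difference below is tumor minus adjacent in log2 units, so that a value of -1 is a halving of the signal.

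CAR and PXR are nuclear receptors of the hepatocyte that sense drugs, pollutants, bile acids and steroids. Each pairs with the retinoid X receptor and binds repeated copies of a short hexamer, classically written AGGTCA, near its target genes. Phenobarbital-type inducers drive CAR into the nucleus, where Cyp2b10 is its classical mouse target, whereas ligands of PXR classically induce Cyp3a11. In adult mouse liver Cyp2b9, Cyp2b13 and the Cyp3a41 genes are known as female-biased genes, held low in males by the male pattern of growth hormone release. Cyp2b10, Cyp2b13 and Cyp2b9 lie in this order in a cluster on chromosome 7, and the Cyp3a genes lie on chromosome 5.

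The 3 Cyp2b genes differ in how alike their promoters are, which matters for reading their values side by side. The 250 bases before an annotated start listed for each gene were taken from RefSeq (build GRCm38.p6), where all 10 listed genes had an entry. They are shown 5′ to 3′ on the strand of the gene, with the hexamers AGGTCA and AGTTCA, searched on both strands and not overlapping each other, in capitals.
Cyp2b9, chr7:26173159-26173408, plus strand: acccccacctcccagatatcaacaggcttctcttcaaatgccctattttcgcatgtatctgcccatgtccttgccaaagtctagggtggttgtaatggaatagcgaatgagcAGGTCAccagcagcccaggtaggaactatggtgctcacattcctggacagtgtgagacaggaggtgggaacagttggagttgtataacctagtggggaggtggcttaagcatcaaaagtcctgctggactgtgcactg
Cyp2b13, chr7:26061245-26061494, plus strand: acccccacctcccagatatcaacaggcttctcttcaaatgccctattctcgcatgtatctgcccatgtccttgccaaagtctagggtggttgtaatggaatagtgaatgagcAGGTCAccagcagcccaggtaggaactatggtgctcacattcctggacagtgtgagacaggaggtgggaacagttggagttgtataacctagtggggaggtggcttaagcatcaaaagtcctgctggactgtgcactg
Cyp2b10, chr7:25897408-25897657, plus strand: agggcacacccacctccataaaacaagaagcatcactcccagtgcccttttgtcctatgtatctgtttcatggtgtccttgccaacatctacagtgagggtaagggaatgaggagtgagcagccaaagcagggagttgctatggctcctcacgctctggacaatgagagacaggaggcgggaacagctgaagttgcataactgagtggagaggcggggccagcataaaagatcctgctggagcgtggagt
The windows of Cyp2b9 and Cyp2b13 were identical at 248 of 250 bases (99.2%). The 2 differences, counted from 1 at the 5′ end of the printed run and read from Cyp2b9 to Cyp2b13, were T48C and C104T. Both windows held 1 AGGTCA hexamer, 138 to 133 bases before the start used. That start lay inside the annotated span of each of these genes, so both windows end after the span begins. The window of Cyp2b10 was identical to that of Cyp2b9 in 182 of 260 aligned columns (70%) and held neither hexamer. Sequence farther from the start was not searched, so this does not show that Cyp2b10 lacks such a site.

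The promoters of the 2 Cyp3a genes with the highest counts of these hexamers are shown next, as a description of sequence only.
Cyp3a11, chr5:145879855-145880104, minus strand: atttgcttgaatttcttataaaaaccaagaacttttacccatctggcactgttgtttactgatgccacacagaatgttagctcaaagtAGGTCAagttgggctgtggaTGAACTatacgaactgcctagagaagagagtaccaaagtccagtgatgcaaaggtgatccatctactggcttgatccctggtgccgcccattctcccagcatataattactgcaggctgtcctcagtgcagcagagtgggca
Cyp3a25, chr5:146009619-146009868, minus strand: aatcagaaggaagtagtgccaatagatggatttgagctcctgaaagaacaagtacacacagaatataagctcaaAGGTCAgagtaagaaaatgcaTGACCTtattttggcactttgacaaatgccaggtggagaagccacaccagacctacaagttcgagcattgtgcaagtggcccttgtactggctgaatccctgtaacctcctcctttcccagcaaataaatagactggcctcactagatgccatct
The window of Cyp3a11 held 1 AGGTCA and, on the other strand, 1 AGTTCA. That of Cyp3a25, the first of 2 windows listed for the gene that start 1 base apart, held 2 AGGTCA hexamers on opposite strands. The 2 windows were identical in 146 of 277 aligned columns (52.7%). Neither hexamer was found in the windows of Cyp3a13, Nr1i2, Nr1i3 and Por. The windows of Cyp3a13 and Por lie wholly inside the annotated spans of these genes. Over 32851 windows of the same length in the table, 14% held AGGTCA, 11.8% held AGTTCA and 24.2% held at least 1 of them, so a match by itself is common. These matches are letters in a window, not measured binding sites, and sequence outside the windows was not searched.

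The tumors had less CAR and less of 3 Cyp3a transcripts, a Cyp2b9 signal that went up in 3 mice and down in the fourth, and a PXR level whose change was small. Of the 8 genes, 6 had a mean over the 8 arrays above the filter value of 4.597 and were tested, and Cyp2b10 and Cyp2b13 were left out by that filter. By limma (adjusted p under 0.05 over 11963 genes), 4 of the 6 were lower in the tumors and 0 were higher, with 0 higher at an unadjusted p under 0.05 as well. Over all tested genes 15.7% were called lower and 16.3% higher, 31.9% together. With each array centred on its median, 21.3% were called lower and 12.8% higher, and 4 of the 6 genes were still lower. The median difference was -0.885 over the 6 genes and 0.0008 over all tested genes. Per mouse, the median of the 6 was -0.511 (M24), -0.631 (M48), -1.09 (M50) and -1.15 (M60). In 3 of the 6 genes every tumor lay below every adjacent sample, which held for 15.6% of all tested genes, and in 0 of the 6 did every tumor lie above, against 14.9%. Without M48, 5 of the 6 were called lower and 1, Cyp2b9, higher, against 14.4% and 14.7% of all tested genes.

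**Figure D1:**
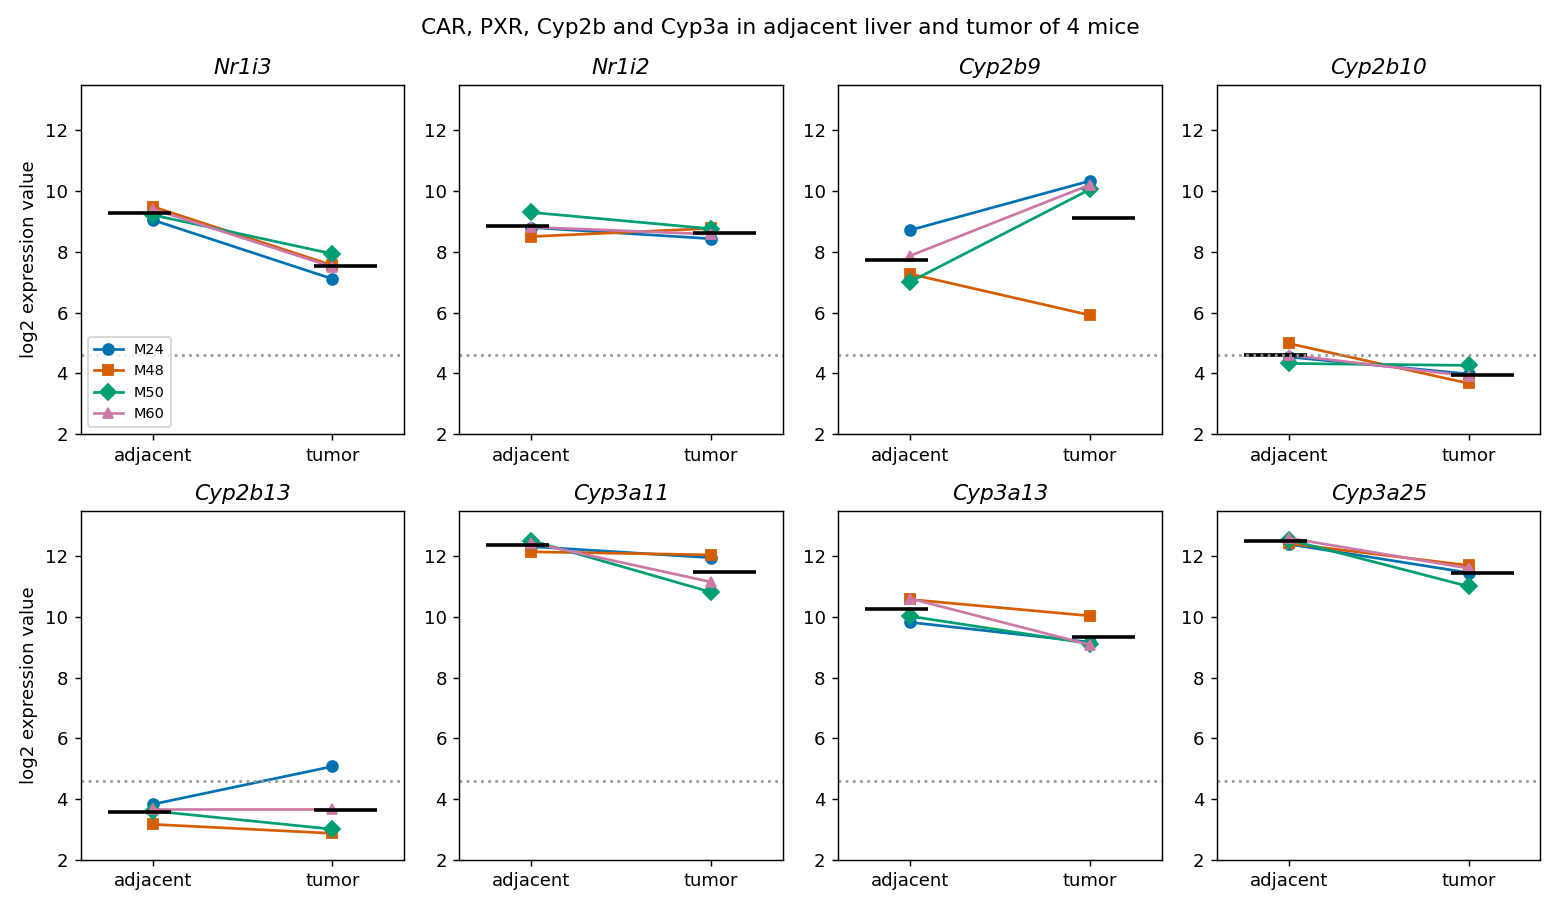
Log2 expression value (y axis) of each gene in the adjacent liver and the tumor of the same mouse, joined by a line for each of 4 mice, with black bars at the group means and the filter value of 4.597 as a dotted line. Nr1i3 and Cyp3a25 fell along all 4 lines, Cyp2b9 rose along 3 lines and fell in M48, and Cyp2b10 and Cyp2b13 lay close to or below the dotted line.

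Nr1i3, the gene of CAR, had the largest fall among the tested members. The log2 level in adjacent liver was 9.05 for M24, 9.49 for M48, 9.22 for M50 and 9.41 for M60. The level in the tumors was 7.11 for M24, 7.56 for M48, 7.94 for M50 and 7.51 for M60. The 2 groups did not overlap, and the highest tumor, that of M50, was still more than a log2 unit below the lowest adjacent sample. The mean fell from 9.29 ± 0.198 (SD, n = 4) to 7.53 ± 0.338 (SD, n = 4). This was a difference of -1.77 (SE 0.131, limma adjusted p = 0.000437), or a 3.4-fold lower signal with a 95% interval from 2.74 to 4.23-fold. The difference was -1.94 in M24, -1.93 in M48 and -1.91 in M60, and smaller, at -1.28, in M50.

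Nr1i2, the gene of PXR, did not pass the test. Adjacent levels were 8.80 (M24), 8.50 (M48), 9.30 (M50) and 8.81 (M60), and tumor levels were 8.43, 8.77, 8.76 and 8.58 in the same order of mice. The groups overlapped, and the tumor was lower in 3 mice and higher in M48. The mean difference was -0.22 (SE 0.138, limma adjusted p = 0.274), with a 95% interval from -0.55 to 0.11. That interval does not show the level to be the same, and without M48 the difference was -0.38 (limma adjusted p = 0.0367). The fall of Nr1i3 was larger than that of Nr1i2 in all 4 mice, by 1.55 ± 0.604 (SD) log2 units in the mean. An exact sign-flip permutation test, two-sided, gave p = 0.125, the smallest value that 4 mice allow, and 0.375 after adjustment over the 3 pairs of genes compared in this way. The other pairs set Cyp2b9 against Cyp2b10 and Cyp2b13, and their values are not given because those probes read close to or below the filter value.

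**Figure D2:**
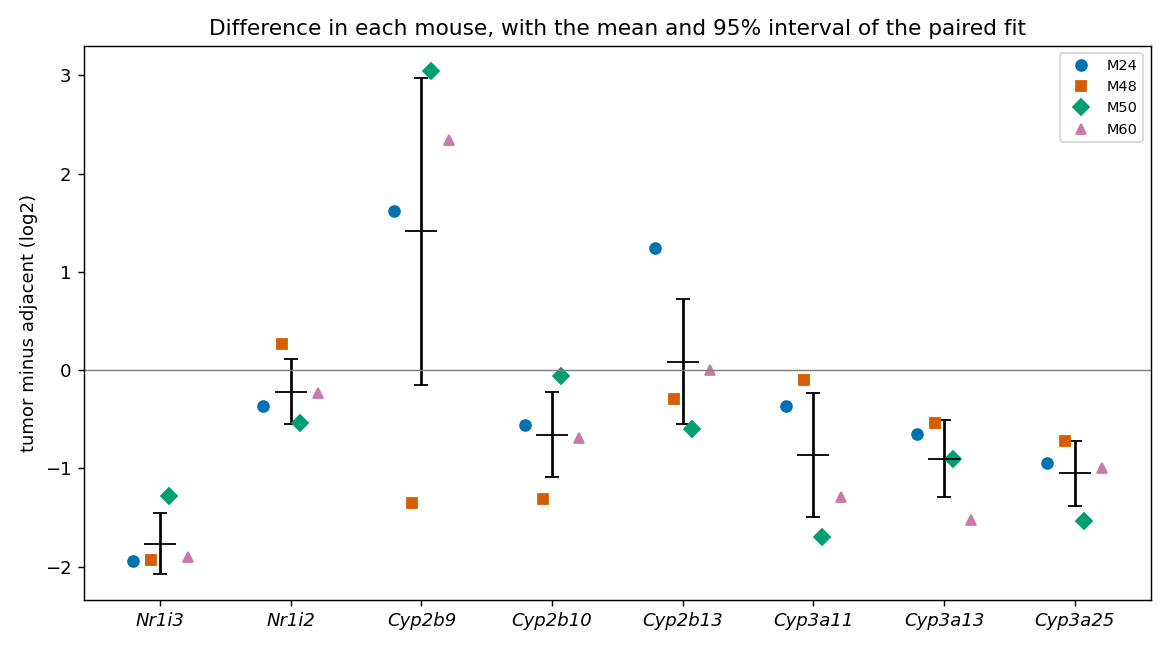
Tumor minus adjacent difference in log2 units (y axis) for each gene, with a point for each of 4 mice and a black bar with whiskers for the mean and 95% interval of the paired fit (for Cyp2b10 and Cyp2b13, of the fit with no filter on low values). The Nr1i3 points lie between -1.94 and -1.28, and those of Cyp2b9 between -1.36 and 3.04.

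Cyp2b9, a female-biased steroid and drug hydroxylase, varied most between mice. Its adjacent level was 8.71 (M24), 7.27 (M48), 7.01 (M50) and 7.87 (M60). Its tumor level was 10.34 in M24, 10.06 in M50 and 10.21 in M60, but 5.91 in M48. These 3 tumors were nearly level with each other and above all adjacent samples, and the tumor of M48 was below all adjacent samples. The differences were 1.62 in M24, 3.04 in M50, 2.34 in M60 and -1.36 in M48. Their mean, 1.41 (SE 0.654), did not pass (limma adjusted p = 0.15), with a 95% interval from -0.15 to 2.98. Without M48 the mean was 2.33 (limma adjusted p = 0.00247), and without any other single mouse it did not pass.

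The adjacent liver of M48 stood apart in 2 male-biased genes, Elovl3 and Cyp4a12a. They are named here because their values in this mouse were known from earlier work on these data. That M48 stands apart in them is therefore not an independent finding. In adjacent liver Elovl3, a fatty acid elongase, was at 3.57 in M48 and at 9.29 to 11.57 in the other mice. Cyp4a12a, a fatty acid hydroxylase, was at 6.12 in the adjacent liver of M48 and at 10.26 to 10.95 in the others. In the tumors Elovl3 was at 6.46 (M24), 2.98 (M48), 3.65 (M50) and 5.97 (M60), and Cyp4a12a at 6.64, 4.39, 5.55 and 6.75 in the same order. M48 was thus the lowest tumor for both, but M50, where Cyp2b9 rose most, was nearly as low for Elovl3. These 2 Elovl3 tumor values, the adjacent Elovl3 value of M48 and the Cyp4a12a tumor value of M48 were below the filter value of 4.597. At such levels the signal may be background, so the order of the tumors is uncertain. The part of this state of M48 in the Cyp2b9 result was not tested. The adjacent Cyp2b9 level of M48 itself lay within the range of the other 3.

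Cyp2b10, the usual reporter gene of CAR activity, was weak on this array in every sample. Adjacent values were 4.53 (M24), 4.98 (M48), 4.32 (M50) and 4.60 (M60), and tumor values were 3.98, 3.67, 4.26 and 3.91 in that order. All 4 tumors and 2 of the adjacent samples lay below the filter value of 4.597. The tumor was lower in all 4 mice, from -1.31 in M48 to -0.06 in M50, and the groups did not overlap. The mean difference was -0.66 (SE 0.184). In the fit with no filter on low values its adjusted p by limma was 0.0473, in a fit that called 8.97% of 19938 genes lower. Detection calls were not given, and at these levels the signal may be background, so the size of this difference is uncertain.

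Cyp2b13, whose promoter window is nearly that of Cyp2b9, had a low signal in all samples but 1. It was at 3.82 (M24), 3.17 (M48), 3.61 (M50) and 3.65 (M60) in adjacent liver. In the tumors it was at 5.07 (M24), 2.87 (M48), 3.00 (M50) and 3.65 (M60). The tumor of M24 was the only sample above the filter value. In the tumors of M50 and M60 the Cyp2b13 probe was not above its adjacent values. The Cyp2b9 probe was higher in these tumors than in adjacent liver, by 3.04 and 2.34. In M24 both probes were higher in the tumor than in adjacent liver, and in M48 both were lower. The gap between the Cyp2b9 and Cyp2b13 differences gave p = 0.375 by the exact sign-flip permutation test. With 4 mice that test allows no value under 0.125. A probe as low as that of Cyp2b13 may read background, so the size of its differences, and of their gap to those of Cyp2b9, is uncertain. The remaining Cyp2b genes measured, Cyp2b19 and Cyp2b23, had group means from 3.51 to 3.70 and were not tested.

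The 3 Cyp3a genes, which encode drug- and steroid-oxidising P450 enzymes, were all lower. Cyp3a25 had the steadiest fall. Its adjacent levels were 12.40 (M24), 12.42 (M48), 12.54 (M50) and 12.60 (M60), and its tumor levels 11.45, 11.70, 11.00 and 11.60. No tumor reached the adjacent range. The difference was -1.05 (SE 0.139, limma adjusted p = 0.00264), a 2.07-fold lower signal with a 95% interval from 1.65 to 2.61-fold.

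Cyp3a13, the more distant family member that is also known from the intestine, was at 9.82 (M24), 10.57 (M48), 10.02 (M50) and 10.60 (M60) in adjacent liver. In the tumors it was at 9.17, 10.04, 9.12 and 9.08. The groups overlapped, because the tumor of M48 was higher than the adjacent liver of M24 and M50, but the tumor was lower than its own adjacent liver in all 4 mice. The difference was -0.90 (SE 0.164, limma adjusted p = 0.00783), with values from -1.52 in M60 to -0.54 in M48.

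Cyp3a11, the classical PXR target, was at 12.32 (M24), 12.14 (M48), 12.52 (M50) and 12.44 (M60) in adjacent liver. Its tumor levels were 11.95 (M24), 12.04 (M48), 10.82 (M50) and 11.15 (M60). The groups did not overlap, yet the fall was uneven: -0.37 in M24 and -0.10 in M48 against -1.70 in M50 and -1.29 in M60. The mean of -0.87 (SE 0.265) passed narrowly (limma adjusted p = 0.0474). The call was lost without M24 (limma adjusted p = 0.0681), without M50 (0.138) and without M60 (0.161), with a further quantile normalization (0.0684) and with no filter on low values (0.0574). The adjacent levels of Cyp3a11 and Cyp3a25, from 12.14 to 12.60, were not far below the highest value on any array, 14.49, and arrays can compress differences near the top of their range.

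**Figure D3:**
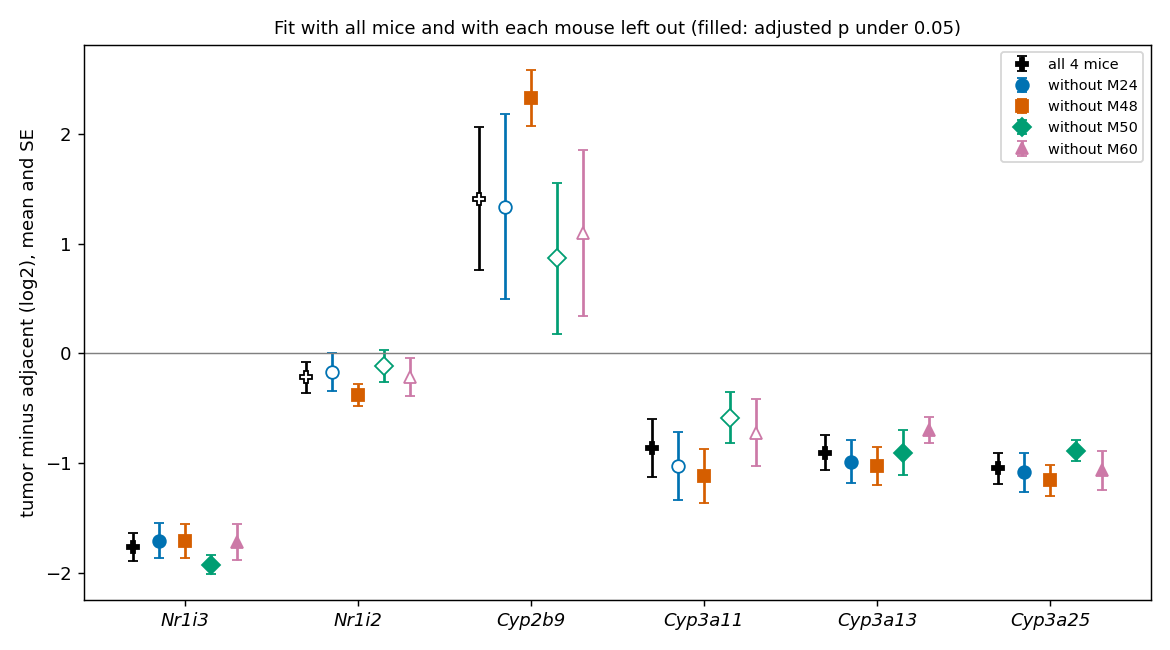
Mean tumor minus adjacent difference in log2 units (y axis, whiskers: SE) of the 6 tested genes in the fit with all 4 mice and in fits with 1 mouse left out, filled where the adjusted p by limma was under 0.05. Nr1i3, Cyp3a13 and Cyp3a25 are filled in all 5 fits, Cyp3a11 in the fit with all mice and in that without M48, and Cyp2b9 and Nr1i2 only without M48.

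Of 3 probes that list several Cyp3a genes at once, the 2 that list Cyp3a41a, Cyp3a41b and Cyp3a44 showed the split between mice seen for Cyp3a11, and the other did not. The probe annotated jointly to Cyp3a41a, Cyp3a41b and Cyp3a44 read 9.15 to 9.58 in adjacent liver and 7.77 to 9.14 in tumors. Its difference was -0.14 in M24 and -0.0043 in M48, against -1.81 in M50 and -1.19 in M60. A further probe, which lists those 3 genes and Cyp3a11, gave -0.13, -0.04, -1.86 and -1.19 in the same order. These signals cannot be assigned to any 1 of the genes listed and were not tested. Cyp3a44, a near copy with a probe of its own, gave -0.18 (M24), 0.21 (M48), -1.98 (M50) and -1.39 (M60), a mean of -0.84 that did not pass (limma adjusted p = 0.12). It passed without M48, at -1.18 (limma adjusted p = 0.0416). The remaining joint probe, listing Cyp3a25, Cyp3a57 and Cyp3a59, was lower in all 4 mice, least in M48 (-0.71), more in M24 (-1.21) and M60 (-1.37), and most in M50 (-1.90). Because these copies can share signal on the array, the value of each is uncertain. Cyp3a16 and Cyp3a57, with group means from 2.87 to 3.42, were left out by the filter. With no filter on low values Cyp3a57 was called lower (-0.33, limma adjusted p = 0.0139), at a level where the signal may be background.

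The mouse with the smallest fall of Nr1i3 was not the one with the smallest falls of the Cyp3a genes. The Nr1i3 differences of M24, M48 and M60 (-1.94, -1.93 and -1.91) were too close to be ranked, so only M50 differed. M50 had the smallest fall of Nr1i3 (-1.28), but the largest fall of Cyp3a11 (-1.70) and Cyp3a25 (-1.54) and the largest rise of Cyp2b9 (3.04). M48 had a fall of Nr1i3 as large as in M24 and M60 and the smallest falls of Cyp3a11, Cyp3a13 and Cyp3a25. With 4 mice no correlation was computed, and a link between the receptor and the P450 changes was not tested.

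A wider list of 42 genes known to be induced through CAR or PXR, of which 36 had a probe of their own, went in both directions. Of 33 tested genes, 16 fell, 5 rose and 12 did not pass (limma over all genes), and the median was -0.547, against 0.0008 over all tested genes. Among all tested genes 15.7% were called lower and 16.3% higher, so the count of 5 that rose was near the share over all genes. The strongest calls were those of the P450 genes Cyp2c54 (-4.89, SE 0.442, limma adjusted p = 0.000764) and Cyp2c37 (-5.26, SE 0.507, limma adjusted p = 0.000954), close copies whose probes can share signal. Alas1, the first enzyme of haem synthesis, fell by 1.07, and Nqo1, a quinone reductase, rose by 1.30. The other genes that rose, named after their values were seen, were the efflux transporters Abcb1a (1.64) and Abcc4 (1.5), the tubulin Tuba8 (1.09) and the glutathione transferase Gstm4 (0.62). Without the mouse as a block, 3 genes rose in place of 5, the calls of Tuba8 and Gstm4 being lost. Among conjugating enzymes, Ugt2b36, a glucuronosyltransferase, fell by 1.05 and Sult1d1, a sulfotransferase, by 1.48, again named after their values were seen. They do not stand for all such enzymes. The glutathione transferases Gsta4, Gstm1, Gstm2, Gstm3, Gstt1 and Gstt3, also named afterwards, did not pass. Their differences ran from -0.67 for Gstt3 to 0.78 for Gstm3.

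**Figure D4:**
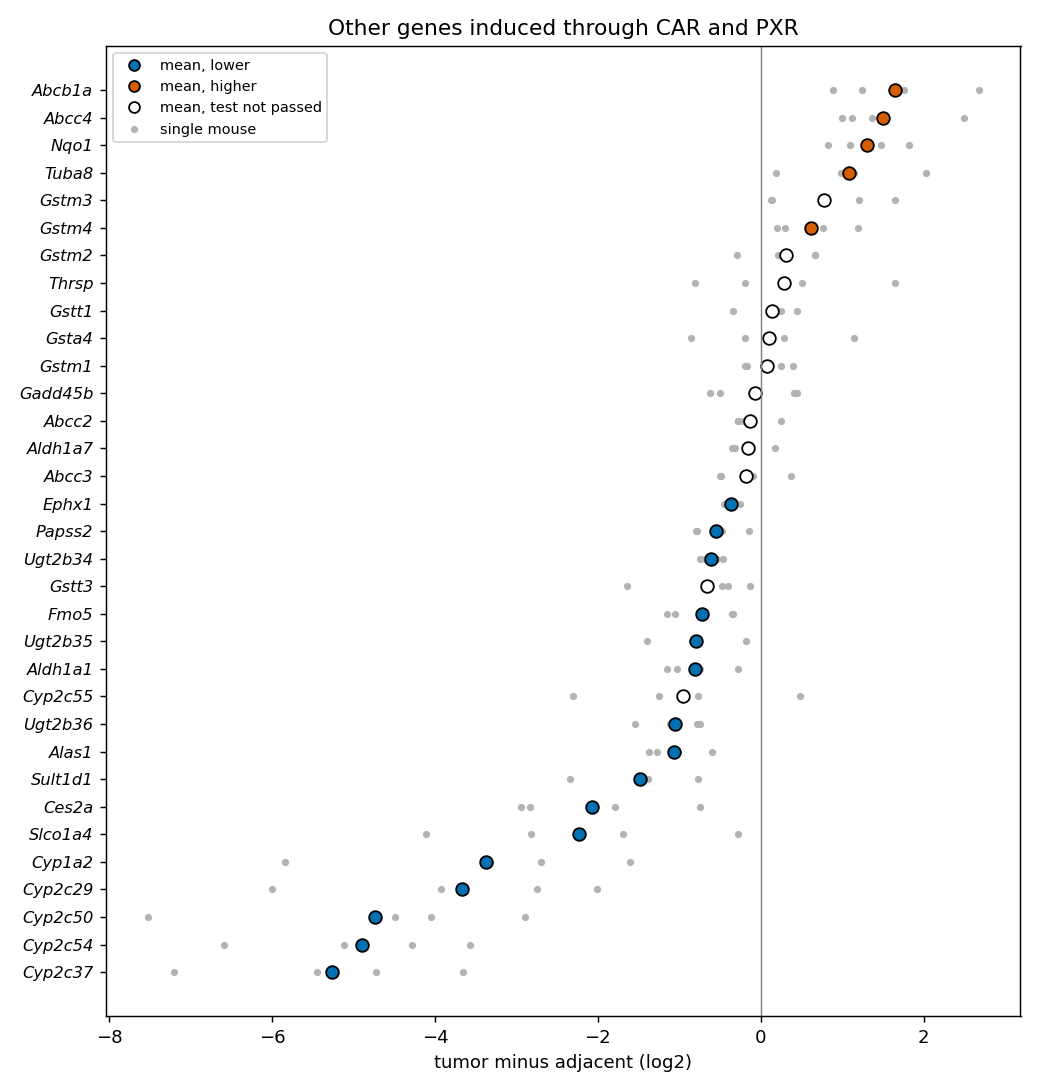
Tumor minus adjacent difference in log2 units (x axis) of the 33 tested genes known to be induced through CAR or PXR (rows), with a grey point for each mouse and a circle for the mean, coloured where the adjusted p by limma was under 0.05. The 16 genes called lower reach from -0.36 for Ephx1 to -5.26 for Cyp2c37, and the 5 called higher from 0.62 for Gstm4 to 1.64 for Abcb1a.

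Genes that active CAR or PXR are known to hold down were lower too. Of 5 tested, 4 fell and 0 rose by limma, with 0 higher at an unadjusted p under 0.05. The shares over all tested genes were 15.7% lower and 16.3% higher. The list median was -1.96, against 0.0008 over all tested genes. The 4 that fell were Pck1 (-1.42) and G6pc (-1.96) of glucose production, and Cyp7a1 (-3.17) and Cyp8b1 (-2.93) of bile acid synthesis. Cpt1a, the gate of mitochondrial fatty acid oxidation, stood at 0.25 (limma adjusted p = 0.324). The call of Cyp7a1 was lost without the mouse as a block (limma adjusted p = 0.0556), and without M48 Cpt1a was called higher.

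Among 21 tested partners and co-regulators of the receptors, 6 fell and 0 rose by limma, again with 0 higher at an unadjusted p under 0.05, and the median was -0.19. Over all tested genes 15.7% were called lower. The retinoid X receptor Rxra, with which both receptors pair, fell by 0.73 (SE 0.0833, limma adjusted p = 0.00162) in 4 of 4 mice. The hepatocyte factor Cebpa (-0.57) and Egfr, the growth factor receptor through which phenobarbital acts on CAR (-0.998), fell as well. Hnf4a, a hepatocyte factor that both receptor genes depend on, fell by 0.35 (limma adjusted p = 0.0253), a call lost when any 1 mouse was left out (0.0529 to 0.0777) and with a further quantile normalization (-0.15, 0.263). Without M48, M50 or M60, 3 of the 21 genes were called lower in place of 6, while 14.4%, 9.78% and 8.95% of all tested genes were, so that without M48 the list was near the share over all genes.

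The microsomal electron carriers and haem enzymes that P450 proteins need were lower in 9 of 16 cases and higher in 1, with a median of -0.402. Among all tested genes 15.7% were called lower and 16.3% higher, with a median of 0.0008. Besides Alas1, the haem enzyme Urod fell by 0.42 and the cytochrome b5 gene Cyb5b by 0.86. The cytochrome b5 reductase Cyb5r3 rose by 0.64. Without M24 or M60, 5 genes of this list were lower, against 11% and 8.95% of all tested genes.

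Regulators known to shape sex-biased P450 expression were measured because Cyp2b9, Cyp2b13 and the Cyp3a41 genes belong to that group. Of 11 tested, 4 fell and 0 rose by limma, with 0 higher at an unadjusted p under 0.05. For comparison, 15.7% of all tested genes were called lower and 16.3% higher. The list median was -0.361, against 0.0008 over all tested genes. With any 1 mouse left out, 3 of the 11 were called lower. The growth hormone receptor Ghr fell by 1.23 (SE 0.0929, limma adjusted p = 0.000444), from -1.43 in M60 to -1.05 in M48. The signal transducer Stat5b (-0.55), the factor Onecut1 (-0.55) and the feedback gene Socs2 (-0.998) fell too. Cux2, known as a female-specific repressor, stood at -0.36 (limma adjusted p = 0.181), with -1.08 in M48 and -0.17 to -0.06 in the other mice. Its adjacent level was 6.32 in M48 and 5.07 to 5.18 in the others, and its tumor levels were 4.94 to 5.24. The call of Socs2 was lost under 7 of 12 alternatives and that of Onecut1 under 3.

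Markers of the cells in the pieces were summed over each list as linear signal, since in bulk tissue fewer cells of a type and less RNA per cell cannot be told apart. Hepatocyte markers, of which 13 were measured, summed to 130000 to 139000 in adjacent liver and 124000 to 140000 in tumors, and 1 (Apoa1) rose and 2 (Apoa2 and Serpinc1) fell. These hepatocyte counts were near or below the shares over all tested genes, 15.7% called lower and 16.3% higher. The strongest of these markers, such as Alb at 13.80 in adjacent liver and 13.91 in tumors, were close to the highest value on any array, 14.49. Arrays can compress differences there, so the sums do not show that the hepatocyte content was unchanged. Pericentral hepatocyte markers, which mark the zone where many CAR targets are known to be most expressed, summed to 27600 to 33400 in adjacent liver and 3440 to 11700 in tumors, and 9 of 12 fell. Of 7 tested periportal markers, 5 (Cyp2f2, Hal, Cps1, Pck1 and Etnppl) fell and 1 (Hsd17b13) rose, with sums of 25300 to 29700 and 15700 to 20000. The part of zonation in the falls of Nr1i3, Cyp3a11, Cyp3a13 and Cyp3a25 was not tested.

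Markers of other cell types were summed in the same way, adjacent liver being given first. Their counts stand beside 15.7% of all tested genes called lower and 16.3% called higher. Of the endothelial markers, 4 of 8 rose (Pecam1, Kdr, Lyve1 and Tek, with sums of 1810 to 2250 against 2240 to 3180). Of the stellate and fibroblast markers, 4 of 8 rose (Pdgfrb, Acta2, Col1a1 and Col1a2, 2540 to 5220 against 3980 to 4730). Of the cholangiocyte markers, 2 of 4 rose (Krt19 and Sox9, 186 to 198 against 252 to 463), with Cftr below the filter value on all arrays. Of 8 macrophage markers 1 (Cd68) rose and 3 (Clec4f, Marco and Timd4) fell (1460 to 6500 against 2110 to 5950), and these calls were lost without the mouse as a block. The count of 1 macrophage marker that rose was near the share over all tested genes. Of 4 tested lymphocyte markers 0 were called by limma, with 3 higher at an unadjusted p under 0.05 (180 to 420 against 376 to 734), and Ms4a1, Cd79a and Gzma were below the filter value on all arrays. The part of these cell types in the results was not tested.

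For likeness of pattern, the 5 tested genes with the highest Pearson correlation over the 8 arrays were taken for 3 of the genes, as a description. The points share 4 mice and the difference between the tissues. For Nr1i3 they were Vegfb (r = 0.995), N4bp2l1 (0.994), Csad (0.993), Slc38a4 (0.991) and Man1a (0.989), whose own differences ran from -3.58 for Csad to -0.62 for Vegfb. For Nr1i2 they were Gpr19 (r = 0.956), Slc6a13 (0.942), Clec2h (0.937), Gpr108 (0.934) and Mbd1 (0.932). For Cyp2b10, with its signal near the filter value, they were Snord22 (r = 0.98), Gkap1 (0.962), Cep350 (0.958), Pxk (0.956) and Gm9909 (0.951).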

How the data were processed

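The data are log2 expression values of 28874 probes in 8 samples, in a single table that the authors deposited with no missing value. The log base was read from the range, 1.918 to 14.49. Array medians lay between 4.888 and 5.006, so the values were taken as already scaled. MAS5 is named in the submitters' processing notes without a role. How background, summarization and scaling were handled is not given in the sources used here, and scan dates were not used, so batch was not tested. The 8 arrays limit the precision.

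Of the probes, 21789 had 1 gene symbol, 1621 had several and 5464 had none. For each of 19938 genes the single-symbol probe of highest mean was kept, and the 40% of genes with the lowest mean (below 4.597) were left out. The tissues were compared by limma 3.58.1 in R 4.3.3 (lmFit, eBayes with trend) with the mouse as a block, since the design text takes both from the same mice. Deviations from the group means correlated at 0.0986 to 0.421 within mice and at -0.378 to 0.189 between different mice, so the ranges overlap. Tests were two-sided, with Benjamini-Hochberg adjustment over 11963 genes and a threshold of 0.05 (3 residual and 3.643 prior degrees of freedom). The fit was tested on simulated data. Alternatives changed the block, filter, scaling, probe rule, variance model, array weights or mice.

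The genes and lists were chosen with earlier results of these data known. Up to 4 genes with the smallest p were named per list, the marker lists aside. Exceptions are marked in the text, apart from Cpt1a, Cux2, Ephx1 and the Cyp2b and Cyp3a genes left out by the filter.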

Additional observations from a re-analysis of the deposited data

Results flagged for a closer look

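In 24 sets of 4 values (the adjacent, tumor and difference values of each of the 8 genes), 3 had a sample far from the others, as measured by its gap to the nearest value over the whole range. Chance gives such a gap in about 1 set in 20. The Cyp2b9 level in the tumor of M48 was 5.91 against 10.06 to 10.34 in the other tumors, a gap ratio of 0.936. The Cyp3a13 level in the tumor of M48 was 10.04 against 9.08 to 9.17, a gap ratio of 0.911. The Nr1i3 difference of M50 was -1.28 against -1.94 to -1.91 in the other mice, a gap ratio of 0.946.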

How the results depend on the processing

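Over 12 alternatives, Nr1i3 (-1.93 to -1.71), Cyp3a25 (-1.16 to -0.89) and Cyp3a13 (-1.03 to -0.70) stayed lower and past the threshold. Cyp3a11 kept its direction (-1.12 to -0.59) and passed under 7 of 12. Nr1i2 and Cyp2b9 passed only without M48. With a mouse left out, 3 to 5 of the listed genes were called lower and 0 to 1 higher, and over all genes 1071 to 1720 were called lower and 1238 to 1759 higher, against 1874 and 1945 with all mice. The lowest counts were those without M60 (1071 lower, 1238 higher), and without M50 1170 genes were lower. With each array centred on its median, 2545 genes were called lower and 1536 higher, and the median difference over all genes was -0.0979 in place of 0.0008. Under the remaining 7 alternatives 1621 to 2059 were lower and 1406 to 2020 higher. With no filter on low values Cyp2b10 was called and Cyp3a11 was not.

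With no replicate block, 4 of the listed genes were lower and 0 higher, as with the pairing by mouse, and 3 in place of 5 of the induced genes were higher. Cyp7a1 and Socs2 (limma adjusted p = 0.0556 and 0.0527) lost their calls, as did Ephx1, Elovl3, Tuba8, Gstm4, Krt19, Pdgfrb, Cd68, Clec4f, Marco and Timd4; the block changed no other call that is given here for a named gene. Of the 20 genes named by rule from the other lists, 15 kept their call under every alternative, 4 lost it under some, 1 gained it and 0 reversed; the cause was not tested. Marker counts of 0 to 3 for hepatocyte, cholangiocyte, macrophage and lymphocyte lists changed with the setting. Signal near background limits Cyp2b10 and Cyp2b13.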
